A study of Mus musculus with 23 samples.

Results

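Wild-type mouse bone marrow-derived macrophages exposed to lipopolysaccharide (LPS) at 100 ng/ml for 24 h were compared with the same kind of cells exposed for 8 h. The members are the 6 libraries whose titles give these groups, 3 at 8 h (libraries 7, 8 and 9) and 3 at 24 h (libraries 10, 11 and 12), of 23 libraries in the whole series, and all 18083 genes with enough counts to be tested of 55401 in the deposited table. The series also holds untreated wild-type macrophages (0 h), wild-type macrophages at 4 h, and the same 4 times for libraries labelled Selenow knock-out, with 2 libraries in the labelled knock-out 24 h group and 3 in every other group. No untreated library was taken at 8 or 24 h, so longer contact with LPS and longer time in culture cannot be told apart. The labels do not say whether the libraries of a group came from separate animals or cultures. The p-values rest on the spread between libraries within all 8 groups of the series, fitted together, and that spread may be technical. In bulk RNA, fewer cells that express a gene and less of its RNA per cell cannot be told apart.

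Macrophages grown from bone marrow are phagocytes of the innate immune system. LPS, a component of the outer membrane of Gram-negative bacteria, is sensed by Toll-like receptor 4 with CD14 and MD-2. MyD88 and TRIF then relay the signal to NF-kB and MAP kinases and to the interferon regulatory factors. An early wave of cytokines and chemokines is followed by a wave of interferon-stimulated genes that depends on secreted interferon beta. Inhibitors that NF-kB itself induces, RNA-decay factors and anti-inflammatory cytokines then limit the response, so that the hours between 8 and 24 h are the period in which the acute programme is known to subside while slower changes in metabolism, growth and receptor display go on.

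The 6 libraries held 39001456 to 41777315 counts and 21890 to 22432 genes with a count, and 3 counts corresponded to 0.0718 to 0.0769 CPM (the count scaled to the library's total) before further scaling. Expression is given below as CPM after TMM scaling, in the order of libraries 7, 8 and 9 at 8 h and 10, 11 and 12 at 24 h. Signed values after a gene name, in parentheses or after "rose by", are log2 fold changes at 24 h against 8 h. The macrophage markers were high in all 6: Csf1r, the receptor for macrophage colony-stimulating factor, was at 1829, 2022 and 1445 CPM at 8 h and 2004, 1923 and 2059 CPM at 24 h, and the lysosomal protein Cd68 was at 1493, 1457 and 952 CPM and 1293, 1234 and 783 CPM. Adgre1, which encodes F4/80, was at 879, 1005 and 993 CPM and 1073, 1265 and 2074 CPM. Its log2 difference of 0.62 ± 0.19 (SE, adjusted p = 0.0121) was past the threshold of 0.05 for the adjusted p of edgeR's quasi-likelihood test, but was 0.28 without library 12 (adjusted p = 0.139) and 0.56 without library 7 (adjusted p = 0.0506). In a principal component analysis of the 6 libraries, the first component held 70.6% of the variance and separated the times, with the 8 h libraries at -55.9 to -80.4 and the 24 h libraries at 43.0 to 80.5. Library 12 stood apart from libraries 10 and 11 on the second component (12.6% of the variance), and library 9 from libraries 7 and 8 on the third (8.79%). For many named genes whose fold change library 9 or 12 moved by over 1.5 times, the value without that library is given as well. Among markers of other cell types, the T cell genes Cd3e, Cd3d and Cd3g and the B cell gene Cd79a were too low to be tested.

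Members of these marker lists that could be tested, named here after their values were seen, also changed. Of 4 T and NK cell genes, 3 fell (median -3.1), with a summed level of 6.54 to 9.54 CPM at 8 h and 1.21 to 2.23 CPM at 24 h. The kinase Lck, at 6.38, 3.48 and 6.56 CPM and 0.511, 0.580 and 1.26 CPM (-2.81), made up most of that sum at 8 h and had a mean of 0.606 CPM before LPS. Of 11 dendritic cell genes, 6 fell and none rose (median -1.55), and their summed level went from 54 to 86.8 CPM at 8 h to 21.4 to 47.8 CPM at 24 h. Most of that sum came from Fscn1 (-1.71), Xcr1 (-1.8) and 2 members that did not pass. Without library 12, Fscn1 was at -2.88 and Xcr1 at -2.63. Fscn1 did not pass without library 8 (-1.72), 9 (-1.47), 10 (-1.33) or 11 (-1.39). Of 5 erythroid and megakaryocyte genes, 2 rose, and the summed level of 29.8 to 52.1 CPM at 8 h and 305, 433 and 27.9 CPM at 24 h was almost all from Pf4 (2.71, adjusted p = 0.00319, and 2.09 without library 11), a platelet chemokine gene. Of 6 B and plasma cell genes, 2 fell and 1 rose, with a summed level of 3.55 to 7.71 CPM at 8 h and 1.12 to 2.25 CPM at 24 h. Fibroblast and stroma genes, 11 tested, held 2 that fell and 1 that rose, at 10.7 to 15.1 CPM and 6.39 to 10.4 CPM summed. In mast cells and basophils, 1 of 2 fell, at under 2 CPM summed. Among all genes, 21.9% fell and 23.1% rose. The part of such cells in the results below was not tested.

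Of the 18083 genes tested, 4169 (23.1%) were higher and 3959 (21.9%) lower at 24 h than at 8 h, 8128 in all (44.9%), at an adjusted p under 0.05. The libraries of both groups did not overlap for 9501 genes (52.5%). At a fold change of at least 2, 1535 called genes (8.49%) were higher and 2111 (11.7%) lower, and the median log2 fold change of all genes tested was 0.03. The split by direction depended on the scaling, since RLE in place of TMM gave 3614 genes higher and 4365 lower. These shares are the background against which the counts in each list below are read.

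**Figure D1:**
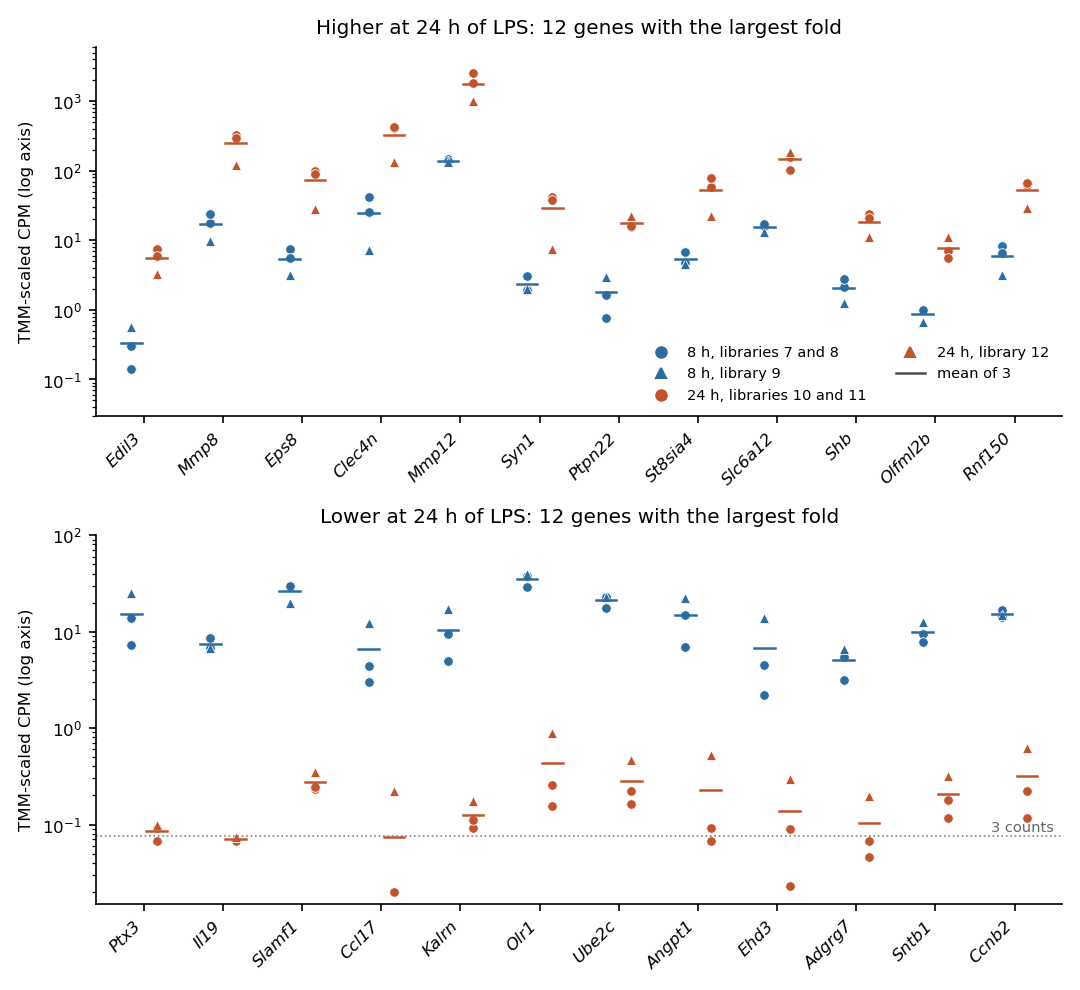
TMM-scaled CPM on a log axis of the 12 genes with the largest fold increase and the 12 with the largest fold decrease, 1 point per library, with triangles for libraries 9 and 12, values of 0 drawn at the bottom of the axis, and a dotted line at the CPM of 3 counts. For each gene the 8 h and 24 h libraries do not overlap, since this was part of how the genes were chosen, and several of the genes that fell sit near the dotted line at 24 h.

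Among called genes with at least 5 CPM in 1 group, no overlap between groups and no predicted locus, the 12 with the largest increase were led by Edil3 (chr13:88821472-89323223), a secreted integrin-binding matrix protein, which went from 0.301, 0.142 and 0.559 CPM at 8 h to 7.52, 5.96 and 3.25 CPM at 24 h, a log2 fold change of 4.07 ± 0.52 (SE, adjusted p = 7.22e-06), and of 4.67 without library 9. Macrophage elastase, Mmp12 (chr9:7344381-7369499), rose from 146, 138 and 134 CPM to 2525, 1803 and 999.9 CPM, or 12.8-fold, with an adjusted p of 3.84e-08. The collagenase Mmp8 rose from 17.6, 24.2 and 9.91 CPM to 325, 299 and 120.3 CPM (14.4-fold, adjusted p = 3.36e-06). The fungal lectin receptor Clec4n, known as Dectin-2, rose from 25.8, 41.5 and 7.21 CPM to 408, 429 and 135 CPM (13-fold, adjusted p = 0.000321), a log2 fold change of 3.7 that was 4.29 without library 8. In Mmp8, Clec4n and Mmp12, library 12 was the lowest of the 24 h libraries and still above every 8 h library. The actin regulator Eps8 rose by 3.76, the synaptic vesicle protein Syn1 by 3.63, the tyrosine phosphatase Ptpn22 by 3.32 (3.91 without library 9) and the polysialyltransferase St8sia4 by 3.32. The betaine transporter Slc6a12 (3.27), the SH2-domain adaptor Shb (3.17), the olfactomedin-domain protein Olfml2b (3.15) and the RING-finger protein Rnf150 (3.14) completed this group.

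These 12 genes had not all been low before LPS. In untreated wild-type macrophages Rnf150 was at 60.8 ± 16.7 CPM (SD, n = 3), St8sia4 at 59.6 ± 20.3 CPM and Ptpn22 at 28.8 ± 7.86 CPM, close to or above their 24 h levels of 52.8 ± 20.5, 53.2 ± 28.3 and 18 ± 3.53 CPM. Mmp12 (28.1 ± 11.1 CPM at 0 h, 1776 ± 763 CPM at 24 h) and Clec4n (13.7 ± 5.98 and 324 ± 164 CPM) were instead above the untreated level at 24 h, after 149 ± 13.7 and 11.3 ± 4.53 CPM at 4 h.

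The 12 genes with the largest decrease by the same rule were all under 1 CPM at 24 h, and several were near the level of 3 counts. Ptx3 (chr3:66219910-66225805), which encodes a secreted pattern-recognition protein of the acute phase, went from 13.8, 7.25 and 24.8 CPM to 0.0929, 0.0670 and 0.0991 CPM, a log2 fold change of -7.48 ± 0.67 (SE, adjusted p = 1.76e-07). Its 24 h level rested on 4, 3 and 4 counts, and the ratio of summed counts, 8 h over 24 h, was 177 with an exact 95% interval of 98.7 to 356. That interval, like the others of this kind, covers counting error only. Il19, a cytokine of the IL-10 family, went from 8.64, 6.80 and 6.80 CPM to 3 counts in each 24 h library, a ratio of 105 (55.2 to 231). Slamf1, a receptor that binds bacterial porins and takes part in TLR4 signalling, fell from 28.8, 29.4 and 19.9 CPM to 0.232, 0.246 and 0.347 CPM, a log2 fold change of -6.57 ± 0.73 (SE, adjusted p = 1.84e-06). The oxidised-LDL receptor Olr1 fell from 37.8, 29.1 and 39.6 CPM to 0.255, 0.156 and 0.892 CPM (-6.38, adjusted p = 8.76e-08), and the log2 fold change was -7.44 without library 12. The T cell-attracting chemokine Ccl17 (-6.53), Kalrn (-6.39), the vessel-stabilising ligand Angpt1 (-6.05), the endocytic protein Ehd3 (-5.67), the adhesion receptor Adgrg7 (-5.64) and the syntrophin Sntb1 (-5.61) fell as well. Without library 12, Angpt1 was at -7.53, Ehd3 at -6.92 and Adgrg7 at -6.49. Without library 9, Ehd3 was at -4.65 and Ccl17 at -5.72, and Ccl17 was at -5.94 without library 10 and -5.91 without library 11. The mitotic genes Ube2c and Ccnb2 were the remaining members and are described with the cell cycle.

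Within 37 pathway lists, those of inflammatory cytokines, interferon-stimulated genes, NF-kB feedback regulators and G2 and M phase genes held no member called higher. Nor did those of cytosolic ribosomal proteins and mitochondrially encoded mRNAs. By contrast, 18 of 30 ribosome biogenesis genes and 10 of 20 aminoacyl-tRNA synthetases were called higher. Not all 37 lists are described below. Those that are give the number of members that passed the test, to be read beside 23.1% higher and 21.9% lower among all genes.

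**Figure D2:**
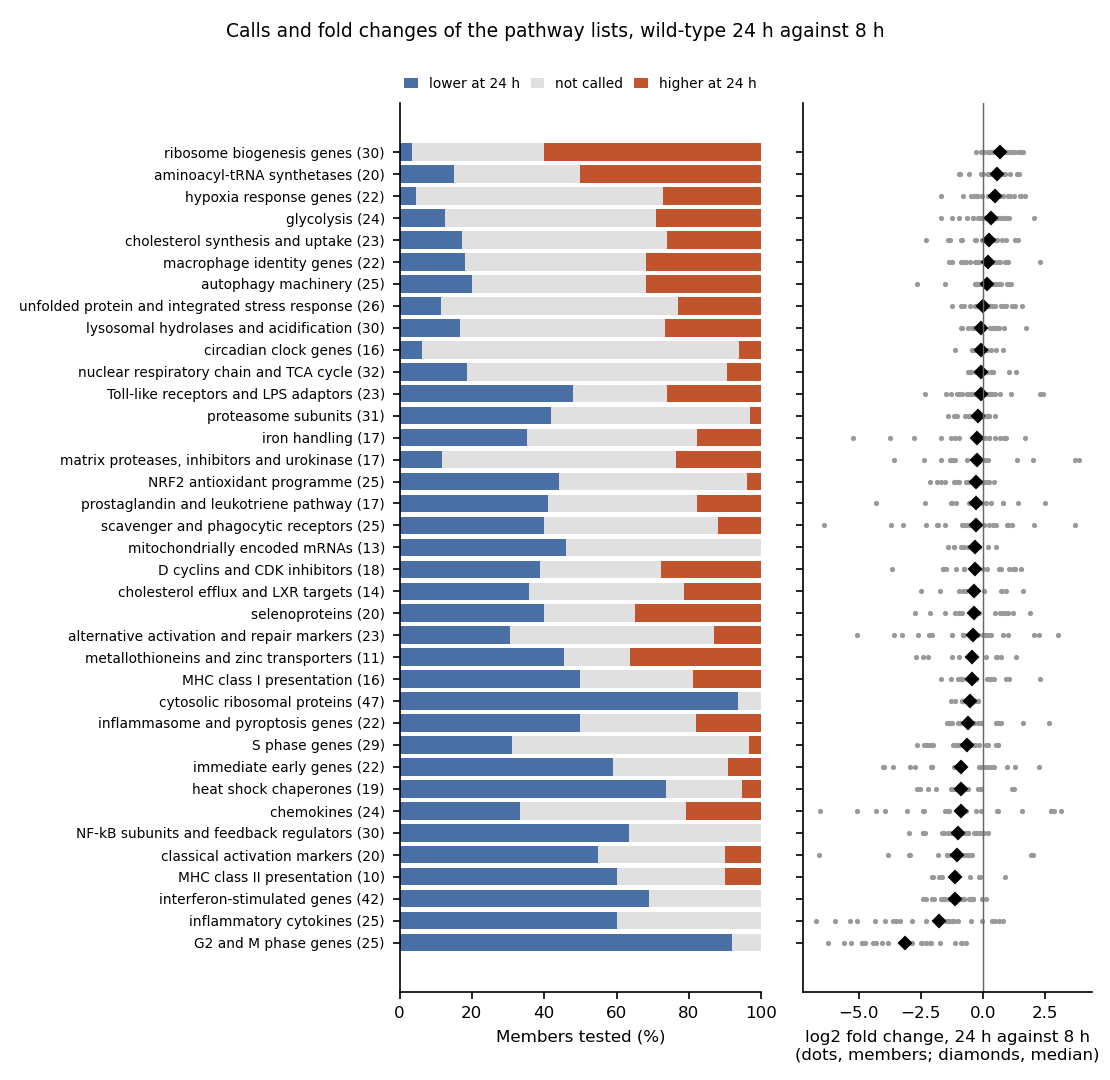
Left, share of the tested members of each pathway list called lower or higher at 24 h (number of tested members in parentheses); right, log2 fold change of each member with the list median as a diamond. Medians run from -3.14 for G2 and M phase genes to 0.66 for ribosome biogenesis genes.

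Of 25 inflammatory cytokine genes, 15 fell, 10 passed in neither direction and none rose (without library 10 or library 11, 1 did: Il15, at 1.08 and 1.13), and the median log2 fold change was -1.75 against 0.03 for all genes tested. Il6, the inducer of the hepatic acute-phase response, was at 68.3, 41 and 226 CPM at 8 h and 2.53, 1.56 and 17.6 CPM at 24 h. The log2 fold change was -3.95 ± 0.93 (SE, adjusted p = 0.00204), with library 9 highest at 8 h and library 12 highest at 24 h. It was -2.92 without library 9 and -5.78 without library 12. Tnf, an early NF-kB target, went from 291, 273 and 673 CPM to 54.8, 47.2 and 70.3 CPM, a log2 fold change of -2.84 ± 0.52 (SE, adjusted p = 0.000238). The shared p40 subunit of interleukins 12 and 23, Il12b, went from 51.2, 42.2 and 311 CPM to 0.302, 0.424 and 9.44 CPM (-5.33, adjusted p = 0.00346), with a log2 fold change of -3.8 without library 9 (adjusted p = 0.0219) and -8.54 without library 12. The alarmin Il33 fell (-5.07). The colony-stimulating factors Csf2 (-5.94, on 0, 2 and 3 counts at 24 h) and Csf3 (-4.34) fell with it. Csf2 was at -5.14 without library 9, -5.35 without library 10 and -6.73 without library 12.

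Anti-inflammatory members fell along with the inflammatory ones. Il10, which restrains macrophage cytokine output, had a log2 fold change of -3.34 ± 0.71 (SE, adjusted p = 0.000924), which became -5.32 without library 12. The IL-1 receptor antagonist Il1rn, which blocks IL-1 signalling, went from 10329, 8932 and 10308 CPM to 1705, 1286 and 2981 CPM, a log2 fold change of -2.31 ± 0.47 (SE, adjusted p = 0.000645). The IL-1 genes themselves did not pass with all libraries. Il1b was at 977, 1058 and 1185 CPM at 8 h and 1333, 973 and 2714 CPM at 24 h, with overlapping groups (0.64, adjusted p = 0.356). Il1a was at 326, 252 and 609 CPM at 8 h and 54, 38 and 329 CPM at 24 h (-1.5, adjusted p = 0.0889). Without library 12 its log2 fold change was -3.11 and passed (adjusted p = 0.00103), as it did with limma-voom (-2.07, adjusted p = 0.0172). It also passed with a term for a set of libraries found in the data (-2.06, adjusted p = 6.07e-08). That set is described with the labelled knock-out libraries below, and a call with it is no separate support.

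The promoter of Il6 is shown because Il6 had the largest decrease among the called members whose promoter holds the NF-kB motif searched. The RefSeq window on GRCm38.p6 runs from 250 bases before to 50 bases from the annotated start (chr5:30012864-30013163, + strand), printed in the direction of transcription with the match to the NF-kB motif, GGGA and TTCC separated by 2 bases on either strand, in capitals.
Il6 promoter: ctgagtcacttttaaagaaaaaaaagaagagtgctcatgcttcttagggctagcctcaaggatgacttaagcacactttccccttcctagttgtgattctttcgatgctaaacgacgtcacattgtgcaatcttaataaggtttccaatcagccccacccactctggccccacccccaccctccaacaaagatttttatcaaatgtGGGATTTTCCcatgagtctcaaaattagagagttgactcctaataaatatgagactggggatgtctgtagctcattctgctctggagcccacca
The motif was found in 3 of 21 promoters of the tested members of this list (14.3%) and in 482 of 32851 promoters in the table (1.47%). A match is a description of the letters and not a site shown to be bound.

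The chemokine genes moved in both directions. Of 24 tested, 8 fell (33.3%, against 21.9% of all genes) and 5 rose (20.8%, against 23.1%). The log2 fold change had a median of -0.89. The inflammatory chemokines Ccl3 and Ccl4 fell: Ccl3 went from 1272, 974 and 2675 CPM to 144, 123 and 332 CPM (-3.04, adjusted p = 5.58e-05, and -3.62 without library 12) and Ccl4 from 322, 288 and 721 CPM to 75.8, 73.1 and 98.6 CPM (-2.43, adjusted p = 8.20e-06). The monocyte attractant Ccl2 was at 1429, 1091 and 2165 CPM at 8 h and 2228, 1931 and 2856 CPM at 24 h, with overlapping groups (0.58, adjusted p = 0.465). Cxcl9, an attractant of T cells, fell by 19.9-fold (160.0, 113 and 405 CPM to 5.04, 3.84 and 25.2 CPM, adjusted p = 9.40e-05). Its log2 fold change of -4.32 was -3.59 without library 9 and -5.68 without library 12. The neutrophil attractant Cxcl3 moved the other way, from 51.5, 64.8 and 29.2 CPM to 442, 292 and 227 CPM, a log2 fold change of 2.72 ± 0.52 (SE, adjusted p = 0.000353) in which every 24 h library was above every 8 h library. The platelet-type chemokine gene Ppbp was called higher (3.13, adjusted p = 0.00613) on libraries 10 and 11, since it was at 14.9, 21.7 and 0.372 CPM at 24 h against 1.53, 1.93 and 0.765 CPM at 8 h. It was not called with limma-voom (1.96, adjusted p = 0.216) or with the 6 libraries fitted alone (adjusted p = 0.064), and was at 2.44 without library 11. The megakaryocyte gene Pf4 was high in the same libraries, at 303, 433 and 27.1 CPM at 24 h against 29.1, 51.3 and 36.2 CPM at 8 h. Cx3cl1 (-3.95), Ccl17 and Ccl24 (-5.05, on 2, 1 and 0 counts at 24 h) were lower. Ccl24 was at -4.26 without library 8 and -6.05 without library 10, and did not pass with limma-voom (adjusted p = 0.109). Without library 9, Cx3cl1 was at -2.71 and no longer passed (adjusted p = 0.0759).

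Of the interferon-inducible chemokines, Cxcl10 and Cxcl11 were not called in the edgeR fit of group means with all libraries, and were called lower without library 12. Cxcl10 was at 1130.2, 969.9 and 2799 CPM at 8 h and 132, 118 and 1641 CPM at 24 h, and its log2 fold change of -1.37 did not pass (adjusted p = 0.145). Without library 12 it was -3.72 (adjusted p = 9.59e-05), and without library 9 it was -0.74. Cxcl11 was at 75.7, 58.3 and 158 CPM at 8 h and 7.57, 6.61 and 149.9 CPM at 24 h, and its log2 fold change moved from -0.83 to -3.79 without library 12. With all libraries, both passed with limma-voom (adjusted p = 0.0165 and 0.0215). Exons covering 41.7% of Cxcl11 overlap a gene on the opposite strand. Over the whole chemokine list, 12 members were called lower without library 12 against 8 with it.

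Interferon-stimulated genes, which encode antiviral effectors and the sensors that feed them, fell in 29 of 42 cases and rose in none, with a median log2 fold change of -1.13. Without library 12, 38 fell and the median was -1.54. The guanylate-binding proteins, GTPases that attack the membranes of vacuoles holding pathogens, showed the largest decreases. Gbp2 went from 2995, 2752 and 2588 CPM to 269, 245 and 1063 CPM (-2.4 ± 0.46, SE, adjusted p = 0.000416), with a log2 fold change of -3.44 without library 12. Gbp5 changed by -2.31 (-3.73 without library 12) and Gbp3 by -2.07 (-3.12 without library 12). Oasl1 (-1.99) and the antiviral GTPase Mx1 (-1.69, and -2.78 without library 12) fell too, with Mx1 not called when the 6 libraries were fitted alone (adjusted p = 0.0585). The ubiquitin-like modifier Isg15 went from 1334, 1200.2 and 1223 CPM to 299.5, 268 and 669.6 CPM, a log2 fold change of -1.6 ± 0.35 (SE, adjusted p = 0.00107). In each of these genes library 12 was the highest of the 24 h libraries and below the lowest 8 h library.

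The RNA-binding Ifit genes fell less and were less secure. Ifit1 was at 1539.5, 1265 and 1649 CPM at 8 h and 427, 390.1 and 1114 CPM at 24 h (-1.2, adjusted p = 0.0158), Ifit2 at 2979, 2119 and 3784 CPM at 8 h and 597, 594 and 1906 CPM at 24 h (-1.52, adjusted p = 0.00947) and Ifit3 at 1199, 973 and 1407 CPM at 8 h and 382, 368 and 1005 CPM at 24 h (-1.03, adjusted p = 0.0453). Ifit1 and Ifit2 did not pass without library 10 (-0.98 and -1.24) or without library 11 (-0.94 and -1.24), and were at -1.87 and -2.32 without library 12. Ifit3 did not pass without library 7, 9, 10 or 11 (-1.02, -0.89, -0.8 and -0.78) and was at -1.67 without library 12. The levels at 24 h were still well above those of untreated cells. Over the list, the median log2 fold change against 0 h was 4.17 at 8 h and 3.13 at 24 h, 2 comparisons that share the untreated libraries.

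The promoters of Gbp2 and Isg15 are shown because they hold the interferon-stimulated response element, here TTTC, 2 bases of any kind and TTTC on either strand, in capitals (Gbp2 at chr3:142620413-142620712, + strand, and Isg15 at chr4:156200769-156201068, - strand, RefSeq windows on GRCm38.p6).
Gbp2 promoter: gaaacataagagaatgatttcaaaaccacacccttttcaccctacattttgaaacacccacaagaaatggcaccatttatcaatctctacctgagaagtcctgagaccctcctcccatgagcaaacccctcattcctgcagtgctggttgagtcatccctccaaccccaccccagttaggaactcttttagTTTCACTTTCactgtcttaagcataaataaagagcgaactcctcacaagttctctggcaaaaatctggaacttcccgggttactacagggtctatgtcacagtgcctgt
Isg15 promoter: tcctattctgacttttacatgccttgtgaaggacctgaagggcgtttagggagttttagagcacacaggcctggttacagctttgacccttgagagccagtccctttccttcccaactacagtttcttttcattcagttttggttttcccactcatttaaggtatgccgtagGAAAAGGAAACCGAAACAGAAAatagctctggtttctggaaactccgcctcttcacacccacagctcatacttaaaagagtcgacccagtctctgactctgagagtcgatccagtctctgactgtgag
The motif was in 22 of 39 promoters of the tested members (56.4%) against 1131 of 32851 promoters (3.44%).

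The NF-kB subunits and the feedback regulators that NF-kB induces fell together. Of 30 genes, 19 fell and none rose, and the log2 fold change had a median of -1.02. The precursor subunits Nfkb1 (329, 307 and 436 CPM to 127, 119.8 and 197 CPM, -1.27) and Nfkb2 (-1.11, adjusted p = 0.000949) were among them. Rel was at 67.9, 51.4 and 89.7 CPM at 8 h and 48.7, 44.5 and 66.8 CPM at 24 h, with overlapping groups (-0.38, adjusted p = 0.112), and passed without library 8 (-0.56) or library 12 (-0.58). The ubiquitin-editing enzyme A20, Tnfaip3, which ends TLR and TNF receptor signals, went from 485, 438 and 744 CPM to 71.6, 61.3 and 180.2 CPM, a log2 fold change of -2.41 ± 0.36 (SE, adjusted p = 4.13e-05), and of -3.07 without library 12. The mRNA-decay factors Zfp36 (-2.4) and Zc3h12a (-1.63) and the A20-binding Tnip3 (-2.35) fell too. Dusp2, a phosphatase of MAP kinases, had the largest decrease, from 59.8, 55.7 and 98.2 CPM to 8.82, 8.04 and 10.1 CPM (-2.99, adjusted p = 5.63e-07). All 3 of its 24 h libraries were still above the untreated mean of 1.65 ± 0.514 CPM (SD, n = 3).

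Immediate early genes encode transcription factors that rise within minutes of a stimulus. Of 22 tested, 13 fell and 2 rose between 8 and 24 h. Nr4a1, an orphan nuclear receptor, went from 16.6, 16.4 and 10.1 CPM to 0.999, 0.804 and 0.818 CPM, a log2 fold change of -4.04 ± 0.25 (SE, adjusted p = 4.36e-09). The zinc-finger factor Egr1 went from 27.4, 19.998 and 52.2 CPM to 1.67, 1.52 and 3.17 CPM (-3.97, adjusted p = 3.72e-06), and Egr3 fell (-3.6) on 3, 0 and 8 counts at 24 h (-2.99 without library 11 and -4.94 without library 12). Of the AP-1 subunits, Fosb (-2.95) and Fosl1 (-2.06) fell. Exons covering 57.2% of Fosl1 overlap a gene on the opposite strand, and the counting did not use strand. Fos was at 49, 56.6 and 36.8 CPM at 8 h and 79.4, 64.1 and 48.6 CPM at 24 h, with overlapping groups (0.43, adjusted p = 0.271). Nr4a3 fell (-2.75), and did not pass without library 9 (-1.79), 10 (-2.27) or 11 (-2.36), with -4.47 without library 12. Klf4, a zinc-finger factor, rose from 17.2, 12.1 and 9.88 CPM to 70.1, 55.6 and 61.1 CPM (2.25, adjusted p = 1.40e-06).

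**Figure D3:**
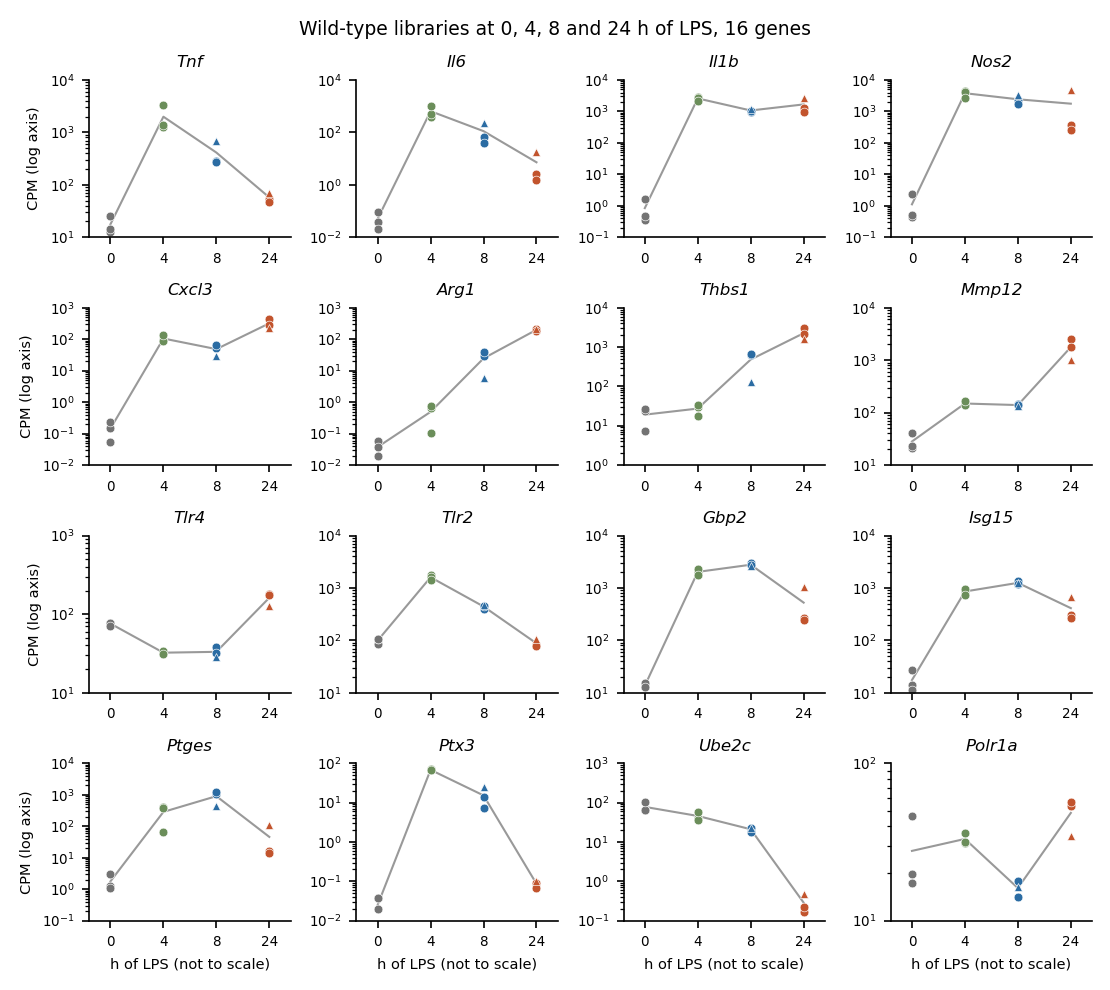
TMM-scaled CPM of 16 genes in each wild-type library at 0, 4, 8 and 24 h of LPS, on log axes with 1 point per library and triangles for libraries 9 and 12; the time axis is not to scale. Tnf and Il6 are highest at 4 h, Arg1 and Mmp12 at 24 h, and the Tlr4 mean lies above its untreated mean at 24 h after lying below it at 4 and 8 h.

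Some markers of classical activation fell in all 24 h libraries, and some were far higher in library 12 than in libraries 10 and 11. Of 20 tested, 11 fell and 2 rose (1 without libraries 9 and 12 together). The costimulatory receptor Cd40 went from 751, 595 and 1105 CPM to 28.5, 29.2 and 116 CPM, a log2 fold change of -3.82 ± 0.47 (SE, adjusted p = 5.42e-06), and of -4.83 without library 12. Marcksl1, an actin-binding protein, went from 939, 1078 and 828 CPM to 105, 112 and 145 CPM (-2.97, adjusted p = 1.59e-08), and Slamf1 belongs here as well. Nos2, the inducible nitric oxide synthase, was at 2305, 1746 and 3254 CPM at 8 h and 376, 260.3 and 4660.3 CPM at 24 h. Libraries 10 and 11 were thus below every 8 h library and library 12 above every one, and the log2 fold change of -0.46 did not pass (adjusted p = 0.69). Without library 12 it was -2.94 (adjusted p = 0.0049). Acod1, which makes itaconate, was at 7466, 7412 and 9365 CPM at 8 h and 1598, 1361 and 6725 CPM at 24 h (-1.32, adjusted p = 0.088) and reached -2.45 without library 12. The arginine transporter Slc7a2 was at 1292, 1177 and 1186 CPM at 8 h and 24.1, 20.6 and 435 CPM at 24 h. It passed with all libraries (-2.93) and was at -5.78 without library 12, but did not pass when the 6 libraries were fitted alone (adjusted p = 0.0803). The plasminogen activator inhibitor Serpinb2 rose from 14.6, 18.4 and 7.0 CPM to 57.9, 48.1 and 53.3 CPM (1.99, adjusted p = 0.00693), and did not pass without libraries 9 and 12 together (1.69).

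The list of alternative activation and repair markers held 3 genes that rose and 7 that fell of 23 (13% and 30.4%, against 23.1% and 21.9% of all genes). Arg1, the arginase that competes with nitric oxide synthase for arginine, went from 29.7, 38.1 and 6.06 CPM to 206, 184 and 211 CPM, a log2 fold change of 3.02 ± 0.52 (SE, adjusted p = 0.000148). Its 24 h libraries were close to each other, and the mean at 0 h was 0.0373 ± 0.0186 CPM (SD, n = 3). The matricellular protein Thbs1 rose by 2.23 and the fatty acid and thrombospondin receptor Cd36 by 2.05, from 155, 170.3 and 43.1 CPM to 641, 724 and 163 CPM with overlapping groups. The mannose receptor Mrc1 was at 61.4, 71.7 and 60.7 CPM at 8 h and 71.9, 122 and 3.22 CPM at 24 h, spread so widely at 24 h that its log2 difference of 0.02 carried an SE of 0.88. The fibronectin gene Fn1 (-3.59), the growth factor Hbegf (-3.26), Ccl24 and the galactose lectin Clec10a (-2.6, adjusted p = 0.0456) fell. Clec10a did not pass without any of libraries 7, 8, 10, 11 or 12, where it lay between -2.4 and -2.82. Retnla, also on the list, was too low to be tested.

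Prostaglandins and leukotrienes are lipid mediators made from arachidonate. Cytosolic phospholipase A2, Pla2g4a, was at 100.6, 95.7 and 128 CPM and 104, 98.3 and 115 CPM (-0.04, adjusted p = 0.932). The cyclooxygenases Ptgs1 (4.39, 4.93 and 6.03 CPM and 8.24, 9.29 and 1.61 CPM) and Ptgs2 (870.4, 623 and 1454 CPM and 269, 188 and 912 CPM) did not pass, although Ptgs2 was at -2.11 without library 12 (adjusted p = 0.0177). Ptges, the inducible prostaglandin E synthase, went from 1031, 1251 and 436 CPM to 16.1, 14.2 and 107 CPM, a log2 fold change of -4.31 ± 0.89 (SE, adjusted p = 0.000754), which became -5.91 without library 12 and -6.24 without libraries 9 and 12. In leukotriene synthesis, Alox5ap, which presents arachidonate to 5-lipoxygenase, rose from 115, 118 and 99 CPM to 346, 333 and 209.5 CPM (1.42, adjusted p = 1.74e-06), and leukotriene C4 synthase, Ltc4s, fell (-2.35), with 26.4% of its exons overlapping a gene on the opposite strand and an adjusted p of 0.053 with limma-voom. The prostacyclin receptor Ptgir fell (-1.3) (-1.89 without libraries 9 and 12). The prostaglandin-degrading Hpgd, low at both times, was called lower (-1.25, adjusted p = 0.0455) with overlapping groups, and not without library 7 (-1.21), 9 (-1.02), 10 (-1.11) or 12 (-0.97). In all, 7 of 17 genes fell and 3 rose, with 4 lower without library 7, 8 or 12 and 3 without library 10.

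The receptors that sense microbes were reordered. Tlr4, the LPS receptor, went from 38.8, 32.4 and 28.4 CPM to 182, 178 and 126 CPM, a log2 fold change of 2.29 ± 0.19 (SE, adjusted p = 5.84e-08), above the untreated mean of 75.9 ± 3.55 CPM (SD, n = 3). Tlr2, which senses bacterial lipoproteins, went the opposite way, from 398, 462 and 470.2 CPM to 81.2, 76.5 and 106 CPM (-2.34 ± 0.17, SE, adjusted p = 1.52e-08). Its partner Tlr1 (-1.05) and the double-stranded RNA receptor Tlr3 (-1.5, adjusted p = 0.000748) fell too. The flagellin receptor Tlr5 rose by 2.39 but stayed at 1.39, 1.09 and 0.421 CPM, below its untreated mean of 5.30 CPM. Tlr9 fell (-1.28, adjusted p = 0.00887), and did not pass without library 9 (-0.85). Over the 23 receptors and adaptors, 6 rose and 11 fell, with a median of -0.09.

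Antigen presentation genes fell more than they rose. Of 10 genes for MHC class II presentation, 6 fell and 1 rose: H2-Aa went from 26.8, 36.8 and 23.7 CPM to 8.43, 11 and 6.24 CPM (-1.76), H2-Ab1 from 56.3, 69.7 and 44.2 CPM to 19.5, 22.1 and 36.7 CPM (-1.12) and H2-Eb1 from 13.6, 20.7 and 15.8 CPM to 3.23, 4.02 and 4.91 CPM (-2.04). Their adjusted p were 2.95e-05, 0.000982 and 3.06e-07. The class II transactivator Ciita fell with them (-1.65, adjusted p = 0.000814), as did H2-Ob (-2.01, and -2.8 without library 12). Over the same interval 6 of 11 dendritic cell markers fell, as given above, and their part in this decrease was not tested. Of 16 genes for class I presentation, 8 fell and 3 rose (1 without libraries 9 and 12 together). The classical heavy chains H2-K1 (1595, 1529 and 1428 CPM and 1672, 1577 and 2370.2 CPM) and H2-D1 (2477, 2341 and 1945 CPM and 3059.9, 2751 and 3408 CPM) did not pass, though H2-K1 did without library 11 (0.41). The immunoproteasome subunits fell: Psmb10 went from 468, 464 and 432 CPM to 141, 125 and 158 CPM (-1.69 ± 0.12, SE, adjusted p = 1.59e-08) and Psmb9 changed by -1.29. The peptide transporter subunit Tap2 fell (-1.0). The 3 members that rose were H2-Q4 (0.9), H2-Q6 (2.3) and H2-Q7 (1.03, and 0.71 and not called without library 12). These are near-identical copies, and pairs that mapped to several places were not counted, so their values are uncertain.

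Genes of cell division had the lowest median of the 37 pathway lists. Of 25 G2 and M phase genes, 23 fell, against 21.9% of all genes, the other 2 did not pass, and the 8 h and 24 h libraries did not overlap for any of the 25, against 52.5% of all genes without overlap. The median log2 fold change was -3.14. Ube2c, the ubiquitin-conjugating enzyme of the anaphase-promoting complex, went from 22.7, 17.6 and 22.9 CPM to 0.163, 0.223 and 0.471 CPM, a log2 fold change of -6.22 ± 0.6 (SE, adjusted p = 3.82e-07). Cyclin B2, Ccnb2, went from 16.6, 14.2 and 14.9 CPM to 0.116, 0.223 and 0.619 CPM (-5.6 ± 0.52, SE, adjusted p = 2.68e-07). The proliferation marker Mki67 went from 99.9, 96.1 and 106 CPM to 3.27, 3.64 and 8.65 CPM (-4.28, adjusted p = 2.60e-07). Library 12 was the highest of the 24 h libraries in each of these 3 genes, and without it Ccnb2 was at -6.49 and Mki67 at -4.87. Topoisomerase Top2a was at 30.7, 23.7 and 35.3 CPM at 8 h and 2.95, 4.15 and 2.90 CPM at 24 h (-3.16) and the mitotic kinase Cdk1 at 15.8, 13.3 and 16.4 CPM at 8 h and 2.60, 3.95 and 2.82 CPM at 24 h (-2.28). The kinetochore gene Cenpf (-5.31, and -6.44 without library 12), the spindle gene Nusap1 (-4.87) and the Polo-like kinase Plk1 (-4.86) fell as well. Exons covering 22.8% of Ube2c overlap a gene on the opposite strand that was too low to be tested.

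Their means were lower at each later time. The untreated means were 317 ± 57.9 CPM for Mki67, 78.2 ± 20.3 CPM for Ube2c and 68.6 ± 5.80 CPM for Ccnb2 (SD, n = 3), and the 4 h means were 228 ± 37.6, 45.9 ± 12.1 and 35.9 ± 14.3 CPM. The list median against 0 h was -2.98 at 8 h and -5.94 at 24 h. Markers of neutrophils and their precursors moved in the same period: 6 of 14 tested fell and 1, Mmp8, rose, while Ly6g was too low to be tested. Ngp went from 5.60, 8.47 and 9.30 CPM to 0.372, 0.424 and 0.471 CPM (-4.21, adjusted p = 7.64e-10), Ltf from 2.50, 3.65 and 3.41 CPM to 0.488, 0.290 and 0.372 CPM (-3.06) and Camp from 1.72, 2.41 and 1.85 CPM to 0.186, 0.0670 and 0.149 CPM (-3.91), while S100a9 went from 21.1, 25.8 and 20.4 CPM to 3.41, 3.46 and 2.30 CPM (-2.87). The summed CPM of the 14 was 686 to 904 at 8 h and 674 to 1111 at 24 h, and most of it came from Lcn2, which LPS-treated macrophages are also known to express (753, 815 and 626 and 339.7, 374 and 983 CPM), and at 24 h also from Mmp8 (325, 299 and 120.3 CPM). Their part in the decrease of the G2 and M phase genes was not tested.

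The promoters of Ube2c and Ccnb2 are shown as the members with the largest decrease that hold the cell-cycle homology region, here TTTGAA on either strand, in capitals. The windows are chr2:164769679-164769978, + strand for Ube2c and chr9:70421505-70421804, - strand for Ccnb2 (RefSeq, GRCm38.p6).
Ube2c promoter: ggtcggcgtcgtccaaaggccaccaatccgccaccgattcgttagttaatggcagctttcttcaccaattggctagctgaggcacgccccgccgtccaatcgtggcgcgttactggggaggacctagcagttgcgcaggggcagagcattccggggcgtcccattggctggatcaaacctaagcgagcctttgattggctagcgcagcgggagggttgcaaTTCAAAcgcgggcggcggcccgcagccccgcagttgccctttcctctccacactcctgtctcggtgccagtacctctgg
Ccnb2 promoter: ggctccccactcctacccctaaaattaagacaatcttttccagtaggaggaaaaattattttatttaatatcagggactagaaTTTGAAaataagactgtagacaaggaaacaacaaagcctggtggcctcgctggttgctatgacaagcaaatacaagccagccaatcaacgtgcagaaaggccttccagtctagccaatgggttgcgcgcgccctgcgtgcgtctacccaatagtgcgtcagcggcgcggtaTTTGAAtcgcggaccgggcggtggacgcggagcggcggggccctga
The motif was in 17 of 22 promoters of the tested members (77.3%) and in 5878 of 32851 promoters (17.9%). The CCAAT box, searched as CCAAT on either strand, was in 19 of the 22 (86.4%) and in 12289 promoters of the table (37.4%).

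S phase genes changed less. Of 29 tested, 9 fell and 1 rose (none without library 9 or 12), with a median of -0.65. The replicative helicase genes Mcm2 (7.28, 6.91 and 10.2 CPM and 6.71, 8.21 and 3.25 CPM), Mcm3 (31.6, 33.4 and 40.6 CPM and 26.3, 27.1 and 15.7 CPM) and Mcm4 (19.5, 16.4 and 21 CPM and 11.5, 13.1 and 9.49 CPM) did not pass, although the groups did not overlap for Mcm3 and Mcm4. Thymidylate synthase, Tyms, fell from 6.62, 6.43 and 13.9 CPM to 1.42, 1.38 and 1.54 CPM (-2.64, adjusted p = 0.00438). The calls of Mcm5 (-2.04), Cdc45 (-2.12), thymidine kinase Tk1 (-2.29) and Uhrf1 (-2.25) were lost when a library was left out. Without library 9, the highest at 8 h in each of the 4, these values were -1.75, -1.5, -2.08 and -2.15, and 3 of the list were called lower. Leaving out library 10 or library 11 also ended each of the 4 calls (-1.99 to -2.38) and left 3 members lower. Leaving out library 12 ended those of Mcm5, Cdc45 and Uhrf1 (-1.81 to -2.19) and left 3 lower. Uhrf1 did not pass without library 7 (-2.29) or 8 (-2.3) either, and without library 7, 5 members of the list were lower. With the 6 libraries fitted alone, all 4 calls were kept (adjusted p = 0.0035 for Mcm5 and 0.00999 for Cdc45). Mcm4 also passed in that fit (-0.75, adjusted p = 0.0115), while Mcm2 and Mcm3 did not.

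**Figure D4:**
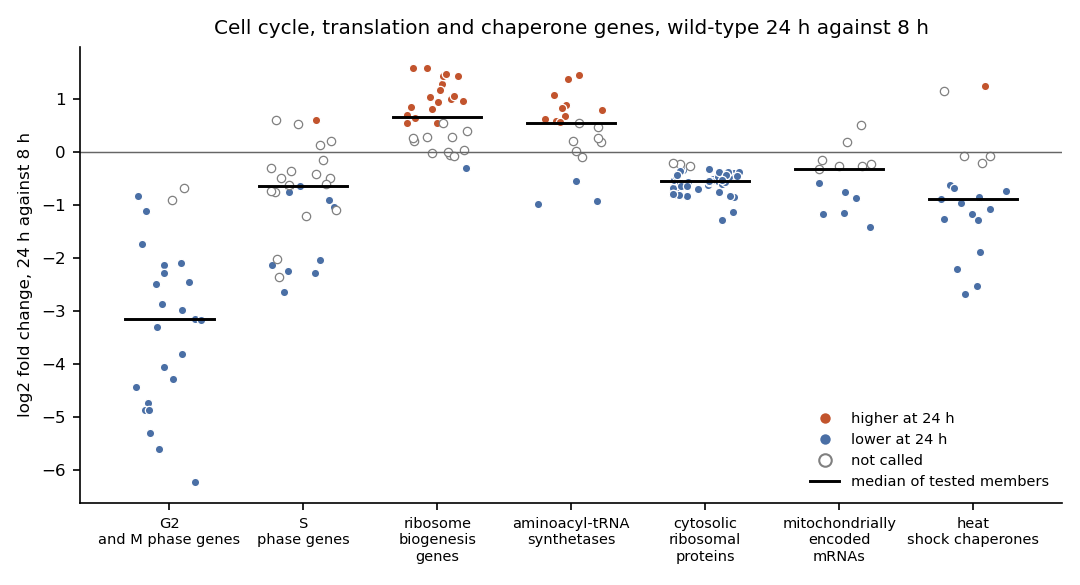
Log2 fold change of each tested member of 7 lists, wild-type 24 h against 8 h, with the list median as a bar; filled points were called. G2 and M phase genes lie between -6.22 and -0.67, and ribosome biogenesis genes lie mainly above 0 while cytosolic ribosomal protein genes lie below it.

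Genes that build ribosomes and genes that encode them moved in opposite directions. Of 30 ribosome biogenesis genes, 18 rose, against 23.1% of all genes, and 1 fell (none without library 8), with a median of 0.66. Against 0 h, the list median was -0.86 at 8 h and -0.14 at 24 h, so it was not above the untreated level at 24 h. Polr1a, the largest subunit of RNA polymerase I, went from 14.1, 17.9 and 16.3 CPM to 53.9, 56.8 and 34.5 CPM, a log2 fold change of 1.59 ± 0.32 (SE, adjusted p = 0.000664). Its second subunit Polr1b rose by 1.42. The processing factors Wdr75 (1.57) and Wdr12 (1.47) and the box C/D snoRNP protein Nop58 (6.17, 10.6 and 10.1 CPM to 25.8, 31.1 and 15.3 CPM, 1.42) rose too. Nop56 (0.39, adjusted p = 0.281) and fibrillarin, Fbl (0.55, adjusted p = 0.0759), did not pass, and Fbl did without library 12 (0.79). In all of these genes library 12 was the lowest at 24 h. Without library 12, 21 of the 30 were called higher, and without library 11, 12 were.

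Of 47 cytosolic ribosomal protein genes, 44 fell, by small amounts, and none rose. The median was -0.54 and the range -1.27 to -0.21. Measured against 0 h, the median was -0.28 at 8 h and -0.82 at 24 h. Rpl3 was at 291, 303 and 342 CPM at 8 h and 146, 167 and 73.6 CPM at 24 h (-1.27, adjusted p = 4.38e-05), with library 12 lowest. Rpl5 went from 255, 267 and 283 CPM to 173, 204 and 177 CPM (-0.54, with 26.7% of its exons overlapping a gene on the opposite strand), and Rpl4, at 388, 401 and 473 CPM and 362, 395 and 338 CPM, did not pass (-0.21, adjusted p = 0.111). The large-subunit genes Rpl10a (-1.13) and Rpl32 (-0.86) and the small-subunit genes Rps19 (-0.84) and Rps23 (-0.83) showed the next largest decreases. Ribosomal protein genes have many processed pseudogenes that can take reads, and pairs that mapped to several places were not counted. Aminoacyl-tRNA synthetases, which charge tRNAs, rose in 10 of 20 cases and fell in 3. Seryl-tRNA synthetase, Sars, went from 92.9, 93.6 and 100.8 CPM to 255, 261 and 266 CPM (1.44 ± 0.21, SE, adjusted p = 2.71e-05), Iars rose by 1.38, Mars by 1.07 and Dars by 0.88. Aars was called (0.58, adjusted p = 0.0296) but not without library 8, 9, 10 or 11, where it lay between 0.52 and 0.58, and Cars was not called (0.47, adjusted p = 0.0704). The arginyl and tryptophanyl enzymes Rars (-0.98) and Wars (-0.92) fell.

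Heat shock chaperones fell in 14 of 19 cases and rose in 1 (2 without library 7). The constitutive chaperone Hspa8 went from 4427, 4112 and 3311 CPM to 836, 764 and 968 CPM, a log2 fold change of -2.21 ± 0.24 (SE, adjusted p = 1.20e-06). Its 24 h libraries were near the untreated mean of 929 ± 50.3 CPM (SD, n = 3). The inducible Hspa1a went from 245, 193 and 185 CPM to 39.1, 23.2 and 35.5 CPM (-2.67) and Hspa1b from 199, 160.2 and 162 CPM to 35.9, 20.6 and 34.2 CPM (-2.52). Their coding sequences are nearly identical, and pairs that mapped to several places were not counted, so the levels of these 2 genes are uncertain. The co-chaperones Dnaja1 (-1.89, adjusted p = 3.84e-08) and Dnajb1 (-1.28, adjusted p = 8.22e-07) fell as well. Hsph1 was called (151, 147 and 113 CPM to 79, 75.7 and 102 CPM, -0.68), but not without library 7, 8, 10 or 11, where its adjusted p lay between 0.0696 and 0.0925. The gene that rose was Hspa4l (1.24, adjusted p = 1.58e-05).

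Antioxidant genes of the NRF2 programme fell in 11 of 25 cases and rose in 1 (none without library 9 or 12). The heme-degrading enzyme Hmox1 went from 6314, 6441 and 3358 CPM to 986, 1017 and 2963 CPM, a log2 fold change of -1.7 ± 0.33 (SE, adjusted p = 0.000386), which became -2.43 without library 12 and -2.67 without libraries 9 and 12. Library 9 was the lowest at 8 h and library 12 the highest at 24 h. Cytosolic thioredoxin reductase, Txnrd1, went from 928, 973 and 633 CPM to 183, 181 and 211 CPM (-2.14 ± 0.18, SE, adjusted p = 7.65e-08), and its substrate thioredoxin, Txn1, fell (-1.17). The glutathione-synthesis subunit Gclm (-1.87), sulfiredoxin Srxn1 (-1.52), NRF2 itself, Nfe2l2 (312, 335 and 318 CPM to 161, 171 and 161 CPM, -0.97), and its inhibitor Keap1 (-0.6) fell too.

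The counts of glycolysis and hypoxia genes depended on libraries 9 and 12. With all libraries, 7 of 24 glycolysis genes rose (29.2%) and 3 fell (12.5%), and 6 of 22 hypoxia response genes rose (27.3%) and 1 fell (4.55%). Among all genes, 23.1% rose and 21.9% fell. Without library 12 the counts were 2 higher and 6 lower for glycolysis, and 2 higher and 3 lower for hypoxia. Without library 9 they were 1 and 3, and 2 and 2. Without both libraries they were 1 and 6, and 2 and 7, and the median of the hypoxia genes went from 0.47 to -0.63. Ero1l, an oxidase of the endoplasmic reticulum, was at 88.6, 79.2 and 46.2 CPM at 8 h and 101.5, 100.7 and 492 CPM at 24 h. Its log2 fold change of 1.7 ± 0.45 (SE, adjusted p = 0.00488) was 0.5 without library 12 (adjusted p = 0.134). The collagen prolyl hydroxylase P4ha2 was at 6.02, 8.30 and 3.56 CPM at 8 h and 5.85, 5.51 and 39.9 CPM at 24 h, and its log2 fold change went from 1.52 to -0.07 without library 12. It did not pass either without library 7 (1.52) or library 9 (1.25).

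The oxygen sensor Egln1, at 48.5, 47.7 and 11.8 CPM at 8 h and 60.4, 61.9 and 131 CPM at 24 h, was called higher (1.23) but not without library 9 (0.81) or 12 (0.76). Mxi1 (1.05) was not called without library 9 (0.6), 10 (1.2) or 12 (0.65). The mitophagy receptor Bnip3l remained called without both libraries 9 and 12 (0.81, adjusted p = 0.0298) after 1.49 with all. Vegfa (130.3, 111 and 34.5 CPM and 83.6, 71 and 163 CPM) and Egln3 (19.5, 22.3 and 1.38 CPM and 12.5, 12.3 and 67.5 CPM) overlapped and did not pass. Of the glycolysis genes, the glucose transporter Slc2a3 rose in a way that did not depend on these libraries, from 2.29, 2.41 and 2.27 CPM to 9.17, 10.4 and 9.44 CPM (2.06 ± 0.34, SE, adjusted p = 9.47e-05). The transporter Slc2a1 was at 684, 654 and 322 CPM at 8 h and 298, 260.3 and 699.6 CPM at 24 h (-0.4, adjusted p = 0.419) and was called lower without library 12 (-0.99). Hexokinase Hk1 (364, 304 and 332 CPM and 241, 213 and 463 CPM) did not pass, and was called lower without library 12 (-0.56). Tpi1 (1.04) and Eno1 (0.9) were called higher, but not without library 9 (0.66 and 0.65) or library 12 (0.66 and 0.68). Eno2 fell (-1.7, adjusted p = 0.00193, and -2.53 without libraries 9 and 12), and the lactate transporter Slc16a1 (-1.24) was not called lower without library 7 (-1.13) or 12 (-1.06).

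**Figure D5:**
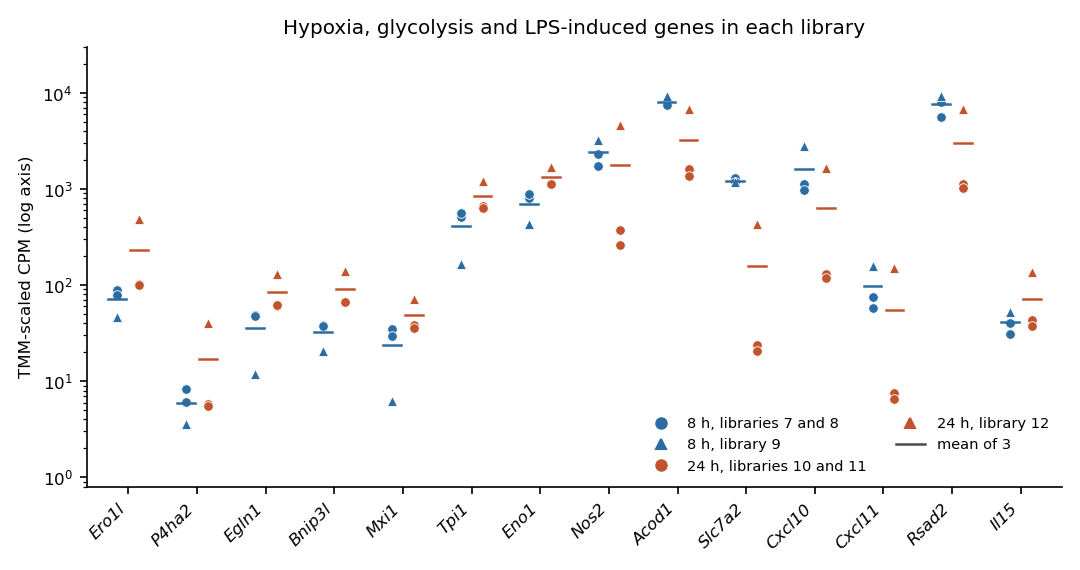
TMM-scaled CPM on a log axis of 14 genes, chosen after their values were seen, in each of the 6 libraries, with triangles for libraries 9 and 12. At 24 h library 12 lies above libraries 10 and 11 in every gene shown, from Ero1l (101.5, 100.7 and 492 CPM in libraries 10, 11 and 12) to Nos2 (376, 260.3 and 4660.3 CPM).

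The same interval in the libraries labelled Selenow knock-out gave 3237 genes higher (17.9%) and 3035 lower (16.8%) at 24 h than at 8 h, with 3 libraries against 2. The targeted gene Selenow was at 303, 319 and 327 CPM in the wild-type 8 h libraries and at 169, 161 and 201 CPM in the wild-type 24 h libraries. In the libraries labelled knock-out it was at 260.4, 135 and 125 CPM at 8 h (libraries 19, 20 and 21) and at 181 and 113 CPM at 24 h (libraries 22 and 23), so that libraries 19 and 22 do not carry the lower level of the others with their label. A test of the difference between the genotypes in the change from 8 to 24 h called 0 of 18083 genes (0%) with edgeR, where 805 had an unadjusted p under 0.05. DESeq2 called 38, and a fit with a term at each time for libraries 3, 6, 9, 12, 14, 17, 20 and 23, a set found in the data with 1 library in each group, called 489. That term also gave a call to 25 of the named genes not called for the change from 8 to 24 h in wild-type, among them Nos2 (-1.59, adjusted p = 0.00097), Cxcl10 (-2.27), Cxcl11 (-2.08), Acod1 (-1.71), Ptgs2 (-1.37), Ccl2 (0.61), Fos (0.43) and Mcm2, Mcm3 and Mcm4 (-0.5, -0.65 and -0.74). Since the set was found in these data, calls gained with its term were favoured by that choice and are no separate support. In the labelled knock-out 24 h group the set parts library 23 from library 22, which also differ in Selenow level. Side by side, the log2 fold changes were 2.29 in wild-type and 1.92 in labelled knock-out libraries for Tlr4, -4.31 and -4.95 for Ptges, -6.22 and -5.58 for Ube2c, 3.67 and 2.69 for Mmp12, and 3.02 and 1.66 for Arg1.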

How the data were processed

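RNA-seq of 23 libraries of mouse bone marrow-derived macrophages was deposited by the authors as raw counts of read pairs per gene. Per the submitters' processing notes, 100-base paired reads were aligned with HISAT2 (version not given in the sources used here) and counted with featureCounts. Per the file headers, this was featureCounts 2.0.1 on exons of Ensembl release 101 (GRCm38), without strand, with a pair assigned to every gene it overlapped. DESeq2 is also named in the notes. Counting without strand means that reads of overlapping genes cannot be told apart. Opposite-strand overlap not marked elsewhere covered, among others, 19.1% of the exons of H2-Q4, 19.0% of Hspa1a, 18.5% of Tap2, 18.1% of Nfkb2 and 15.1% of Csf1r. Symbols came from GENCODE release 21, which named 55141 of 55401 genes.

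All 23 libraries entered 1 fit of 8 group means with edgeR 4.0.16 (R 4.3.3): default filter on low counts, TMM scaling, quasi-likelihood test, Benjamini-Hochberg adjustment over 18083 genes. The SE was the size of the log2 fold change over the root of F. The fit was tested on simulated counts. Alternatives used DESeq2 1.42.0, limma 3.58.1 (voom), RLE and upper-quartile scaling, other filters and left-out libraries. No replicate number occurs in 2 groups.

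Members and lists were chosen with earlier results of these data known. Named genes are the 12 higher and 12 lower with the largest fold (called, at least 5 CPM in the higher group, no overlap between groups, no predicted loci), and of each list described its first 3 members and up to 5 called members with the largest fold, with some further members (among them Tnf, Il10, Il1rn, Cxcl3, Isg15, Cxcl10, Cxcl11, Il15, Klf4, Hspa4l, Thbs1, Cd36, Lcn2 and Adam8) chosen after their values were seen. Promoter windows are from RefSeq tables on GRCm38.p6.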

Additional observations from a re-analysis of the deposited data

How the results depend on the processing

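No paired analysis was possible because no replicate number occurs in more than 1 group. The counts of genes higher and lower at 24 h, 4169 and 3959, were 3699 and 4482 with DESeq2, 4030 and 4007 with limma-voom, 3614 and 4365 with RLE scaling, 3930 and 4108 with upper-quartile scaling, 2819 and 2801 at an adjusted p under 0.01, 3325 and 3196 with the 6 libraries alone, 3596 and 3607 without libraries 9 and 12, and 5599 and 5356 with the term for the library set. They were 3435 to 4044 and 3189 to 4066 when 1 library was left out. A test against a fold of 1.5, a stricter question, called 1307 and 1796. Apart from that test and the threshold of 0.01, 76.8% to 99.9% of the 8128 calls were shared in these settings, and none was called in the opposite direction. Genes whose change differed between the genotypes, 0 with edgeR, numbered 0 with limma-voom, 38 with DESeq2, 489 with the term for the library set, 1 with RLE scaling and 1 at a minimum of 1 CPM in 3 libraries (Gm5879 in both), 1 without libraries 9 and 12 (Tagap1), and 0 to 1 when 1 library was left out (Gm5879 without library 8 or 11, Gm6034 without library 23), with the cause not tested.

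Of 187 genes named in the text and called, 150 kept their direction and their call wherever they could be judged among the 15 alternatives that kept the threshold. A gene such as Ccl17 or Hamp was not judged in an alternative where it was not tested or its fold change could not be fitted. Of the 187, 1, P4ha2, reversed: it was -0.072 to 1.94 when 1 library was left out and -0.33 without libraries 9 and 12. With limma-voom 12 of the named genes lost their call (Ccl24, Cdc45, Clec10a, Cx3cl1, Gpx3, Hpgd, Ltc4s, Nlrp1b, P4ha2, Ppbp, Tk1 and Uhrf1), and with the 6 libraries alone 15 did (Adgre1, Egln1, Ero1l, Fscn1, Hpgd, Ifit1, Ifit3, Mx1, Mxi1, Nlrp1b, Nr4a3, P4ha2, Ppbp, Slc7a2 and Tpi1). Fscn1 lost its call with DESeq2, Aars and Mxi1 with RLE scaling, and Mxi1 with upper-quartile scaling. Calls were gained by Cars, Mcm4 and Selenow with the 6 libraries alone, and by Rpl4 and Selenow with DESeq2. Rpl4 also gained a call with RLE scaling, and Acod1, Cxcl10, Cxcl11 and Il1a did with limma-voom. The other reversals were of genes not called. When 1 library was left out, Egln3 lay at -0.21 to 1.56, Hk1 at -0.56 to 0.078, Il15 at -0.028 to 1.13, Mrc1 at -0.78 to 0.58, Nos2 at -2.94 to 0.049, Pla2g4a at -0.12 to 0.10, Ptgs1 at -0.051 to 0.77 and Vegfa at -0.26 to 0.54. Without libraries 9 and 12, Egln3 was at -0.75, Mcm2 at 0.072, Pla2g4a at 0.040 and Vegfa at -0.65. Mrc1 was at -0.049 with DESeq2, at -0.051 with RLE scaling, at -1.06 with limma-voom and at -1.07 with the term for the library set, and Ptgs1 at -0.0039 with limma-voom. Fold changes of Ccl17 without library 12 could not be fitted, since it had 0 counts in libraries 10 and 11. Depth limits genes near 3 counts in a library (0.0718 to 0.0769 CPM), where no decrease beyond that level can be resolved.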

Other observations

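Further lists cover iron handling, inflammasome, selenoprotein, cell-cycle-inhibitor, protease and mitochondrial genes, each read against 23.1% higher and 21.9% lower among all genes. Of 17 iron genes, 3 rose and 6 fell. The transferrin receptor Tfrc, which takes up iron, went from 13.5, 12.9 and 10.5 CPM to 39.5, 43.6 and 36.3 CPM, a log2 fold change of 1.69 ± 0.27 (SE, adjusted p = 6.53e-05). The phagosomal metal exporter Slc11a1 rose by 0.68 (0.5 and not called without libraries 9 and 12), and the iron importer Slc11a2 fell (-1.28). Ceruloplasmin, Cp, went from 264, 260.3 and 265 CPM to 18.9, 24.2 and 73.3 CPM, a log2 fold change of -2.76 ± 0.43 (SE, adjusted p = 5.24e-05), and of -3.62 without library 12, and the metalloreductase Steap4 from 4.87, 5.58 and 5.44 CPM to 0.116, 0.112 and 0.198 CPM (-5.24, adjusted p = 4.31e-05). Hamp, which encodes hepcidin, fell (-3.72) on 2, 0 and 3 counts at 24 h (-3.11 without library 11 and -4.51 without library 12).

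Of 22 inflammasome and pyroptosis genes, 11 fell and 4 rose. Nlrp3 went from 281, 304 and 310.3 CPM to 107, 102 and 159 CPM (-1.28 ± 0.16, SE, adjusted p = 7.21e-06), and the flagellin-pathway sensor Nlrc4 (-1.36) and caspase-1, Casp1 (-1.46), fell with it. The cytokine Il18 fell from 50.7, 47.7 and 57.3 CPM to 13.2, 19.8 and 26 CPM (-1.4). Gsdme, a pore-forming gasdermin, moved the other way, from 1.41, 1.64 and 1.32 CPM to 10.9, 10.7 and 5.77 CPM (2.64 ± 0.22, SE, adjusted p = 7.61e-08), and Txnip rose by 1.61, with 19.4% of its exons overlapping a gene on the opposite strand. Nlrp1b was called higher (0.73) with overlapping groups, and not without library 7 (0.66), 8 (0.66), 10 (0.62) or 11 (0.52).

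Selenoprotein genes were divided, with 7 of 20 higher and 8 lower (5 lower without libraries 9 and 12 together). The glutathione peroxidases Gpx1 (181, 174 and 170.4 CPM to 450.3, 398 and 358 CPM, 1.2 ± 0.11 (SE, adjusted p = 3.41e-07)) and Gpx4 (0.82) rose, and the secreted Gpx3 was called lower (-1.54) but not without library 7 (-1.33), 8 (-1.32), 11 (-1.64) or 12 (-1.25). Selenop, the secreted selenium carrier, went from 985, 1339 and 406 CPM to 146, 197 and 70.020 CPM, a log2 fold change of -2.73 ± 0.77 (SE, adjusted p = 0.00733), with library 9 lowest at 8 h and library 12 lowest at 24 h. Exons covering 15.45% of Selenop overlap Ccdc152 on the opposite strand, which had a mean of 136 CPM at 8 h and 20.7 CPM at 24 h. Of the thioredoxin reductases, Txnrd1 fell (-2.14) and Txnrd3, low at both times, rose (1.88, adjusted p = 0.000187).

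The retinoblastoma gene Rb1, a brake on entry into S phase, rose from 20.6, 21.8 and 13.8 CPM to 55.3, 57.5 and 50.7 CPM (1.54 ± 0.18, SE, adjusted p = 2.71e-06), with 14.9% of its exons overlapping Rcbtb2 on the opposite strand, which itself went from 16.6, 16.2 and 10.7 CPM to 105, 107 and 52.1 CPM, and the kinase inhibitor Cdkn2c fell from 8.09, 7.25 and 6.94 CPM to 2.58, 2.70 and 2.70 CPM (-1.48). The D cyclins Ccnd3 (-0.78), Ccnd1 (-1.61) and Ccnd2 (-1.62) fell. Ccnd1 was not called without library 9 (-1.48), 10 (-1.63) or 12 (-1.46), nor Ccnd2 without library 9 (-1.17), 10 (-1.47) or 11 (-1.47), and 23.4% of the exons of Ccnd1 overlap a gene on the opposite strand. Cdkn2a fell (-3.64) on 1, 0 and 1 counts at 24 h, and was not called without library 9, 10 or 11 (-3.07, -4.05 and -3.02). Of these 18 genes, 7 fell and 5 rose, with 2 lower without library 9 or 10 and 3 without library 11.

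Of 17 matrix protease, inhibitor and urokinase genes, 4 rose and 2 fell (5 without library 12), shares of 23.5% and 11.8% that are near or below those of all genes. The membrane-anchored collagenase Mmp14 went from 1753, 1865 and 1886 CPM to 235, 265 and 549 CPM (-2.39 ± 0.42, SE, adjusted p = 0.000159), and Mmp25 fell (-3.57), whereas Mmp12, Mmp8, Serpinb2 and Adam8 (1459, 1303 and 795 CPM to 3308, 3050.0 and 2662 CPM, 1.34) rose. The gelatinase Mmp2 was at 1.08, 1.47 and 5.21 CPM and 0.929, 0.848 and 1.83 CPM. It did not pass (-1.11, adjusted p = 0.119, and -0.09 without library 9). Mmp3 was too low to be tested. Of 13 mRNAs encoded by mitochondrial DNA, 6 fell and none rose (1 without library 9 or library 10). The complex I subunit mt-Nd1 went from 954, 970.2 and 1129.5 CPM to 616, 669.9 and 524 CPM (-0.75, adjusted p = 0.000381), mt-Atp6 (-1.42) and mt-Co2 (-1.18) fell, while mt-Nd2 (-0.22, adjusted p = 0.231) and mt-Nd3 (-0.27, adjusted p = 0.471) did not pass.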
